A study of Mus musculus with 48 samples.

Results

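The m6A peaks of the hippocampus of naive Hdh+/Q111 (KI) mice were compared between 8 and 5 months of age. This comparison used 6 of the 24 m6A-IP peak lists of a series of 48 libraries: 3 animals of 8 months, called A, B and C here in the order of their numbers, and 3 of 5 months, called D, E and F. The lists were chosen by genotype, age and training alone, and no measured value entered the choice. All 6 animals were male C57BL/6 mice that carried 1 wild-type and 1 knock-in copy of huntingtin with an expanded CAG repeat, and none had been trained. The study describes 5 months as a stage before symptoms and 8 months as a symptomatic stage, so the comparison asks how the m6A map of the KI hippocampus differed between those stages. Naive wild-type (WT) mice of both ages and mice of both genotypes killed after an object location task, 3 animals in each condition, were used only where stated. Each replicate was a different animal, so no animal was seen at both ages. Values are given in the order A, B, C for 8 months and D, E, F for 5 months.

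N6-methyladenosine (m6A) is a methyl mark placed on adenosines of nascent mRNA by a nuclear writer complex built on METTL3 and METTL14, mostly within the DRACH sequence (A, G or T, then A or G, then AC, then A, C or T). It can be removed by the demethylases FTO and ALKBH5, and reader proteins such as the YTHDF and YTHDC families bind it and affect splicing, export, translation and decay. In most mRNAs it gathers in long internal exons and around the stop codon, and in the hippocampus it has been tied to learning and memory.

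In MeRIP-seq, RNA fragments bound by an anti-m6A antibody are sequenced beside the unselected input of the same animal, and a stretch with more IP than input reads is called as a peak. A peak has a summit, a fold enrichment there (IP signal divided by input signal) and a q-value, the p-value after adjustment for the number of places tested. The tissue is a mixture of cells, so that fewer cells of a type and less RNA per cell cannot be told apart. The read depth of the libraries is not in the peak lists, and the absence of a peak is not evidence that a transcript lacked m6A. Expression was not measured here. Among hippocampal marker genes, 8 of 8 markers of CA1 pyramidal neurons had a peak in every one of the 6 animals. Each animal had a peak in 11 of 14 annotation entries for 13 listed markers of dentate granule cells. Of 7 entries for CA3 pyramidal neurons, 6, 5 and 4 had a peak at 8 months, against 5, 4 and 4 at 5 months. Striatal markers had one in 11, 11 and 11 of 13 at 8 months, against 11, 11 and 9 at 5 months. Of all 22380 genes, 11605, 10946 and 12089 had one at 8 months, against 11197, 11115 and 10492 at 5 months. Such counts do not by themselves identify the tissue.

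To show what the regions called at a single age looked like, the strongest summit of 8 of them is printed with 50 bp on either side, on the strand of the gene, with DRACH in capitals (mm9). The first 4 were called in all 8-month and in no 5-month naive KI animal and are the 4 best ranked of these in coding sequence (CDS), at chr4:144742647-144742747 (Vps13d, minus strand), chr6:38390411-38390511 (Ubn2, plus), chr17:66707371-66707471 (1110012J17Rik, minus) and chr2:31653051-31653151 (Abl1, plus). The last 4 were called in no 8-month and in all 5-month animals and are the 4 best ranked in introns, at chr5:72042361-72042461 (Gabra4, minus), chr6:97285130-97285230 (Frmd4b, minus), chr5:113576206-113576306 (2900026A02Rik, minus) and chr5:135504109-135504209 (Stx1a, plus).
Vps13d: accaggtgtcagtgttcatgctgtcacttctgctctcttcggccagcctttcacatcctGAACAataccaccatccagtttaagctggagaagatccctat
Ubn2: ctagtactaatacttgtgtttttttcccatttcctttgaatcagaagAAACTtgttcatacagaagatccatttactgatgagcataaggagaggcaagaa
1110012J17Rik: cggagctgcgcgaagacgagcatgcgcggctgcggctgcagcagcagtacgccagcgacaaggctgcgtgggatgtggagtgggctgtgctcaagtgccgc
Abl1: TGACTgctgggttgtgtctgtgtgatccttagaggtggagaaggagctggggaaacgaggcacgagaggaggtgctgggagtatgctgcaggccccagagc
Gabra4: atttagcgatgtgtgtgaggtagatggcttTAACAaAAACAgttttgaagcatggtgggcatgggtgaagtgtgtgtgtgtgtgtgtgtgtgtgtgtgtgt
Frmd4b: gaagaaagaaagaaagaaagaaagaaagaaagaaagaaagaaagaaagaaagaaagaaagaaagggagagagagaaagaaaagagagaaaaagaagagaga
2900026A02Rik: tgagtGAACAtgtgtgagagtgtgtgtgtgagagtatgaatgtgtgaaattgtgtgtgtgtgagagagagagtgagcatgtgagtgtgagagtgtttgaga
Stx1a: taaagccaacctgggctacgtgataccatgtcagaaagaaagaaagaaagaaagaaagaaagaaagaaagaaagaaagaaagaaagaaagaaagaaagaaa
The intronic windows of Frmd4b and Stx1a held perfect tandem repeats of 63 and 69 bases and no DRACH, and that of Gabra4 a repeat of 32 bases. In the 4 coding windows, in the order printed, the longest such repeat was 10, 10, 14 and 11 bases, and that of 1110012J17Rik held no DRACH. None of the 8 windows held GGAC, the commonest form of the m6A site. How common these features were over all regions is given further on.

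The lists of 8-month animals held more and narrower peaks in 2 of 3 animals. There were 51735, 37948 and 57293 peaks in animals A, B and C of 8 months, against 40799, 36258 and 32710 in animals D, E and F of 5 months. Animal B lay within the 5-month range, so the groups overlapped (48992 ± 9960 at 8 months and 36589 ± 4055 at 5 months, mean ± SD, n = 3 each, exact permutation p = 0.200, two-sided). The median peak width was 172, 326 and 197 bp at 8 months, against 286, 426 and 344 bp at 5 months (p = 0.200, exact permutation test). The total length under peaks differed by less than the spread between animals, 18.1 ± 2.24 Mb at 8 months and 18.4 ± 3.21 Mb at 5 months (exact permutation p = 0.900, n = 3 each). Protein-coding genes with at least 1 summit numbered 11605, 10946 and 12089 at 8 months, against 11197, 11115 and 10492 at 5 months, again with overlap.

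**Figure D1:**
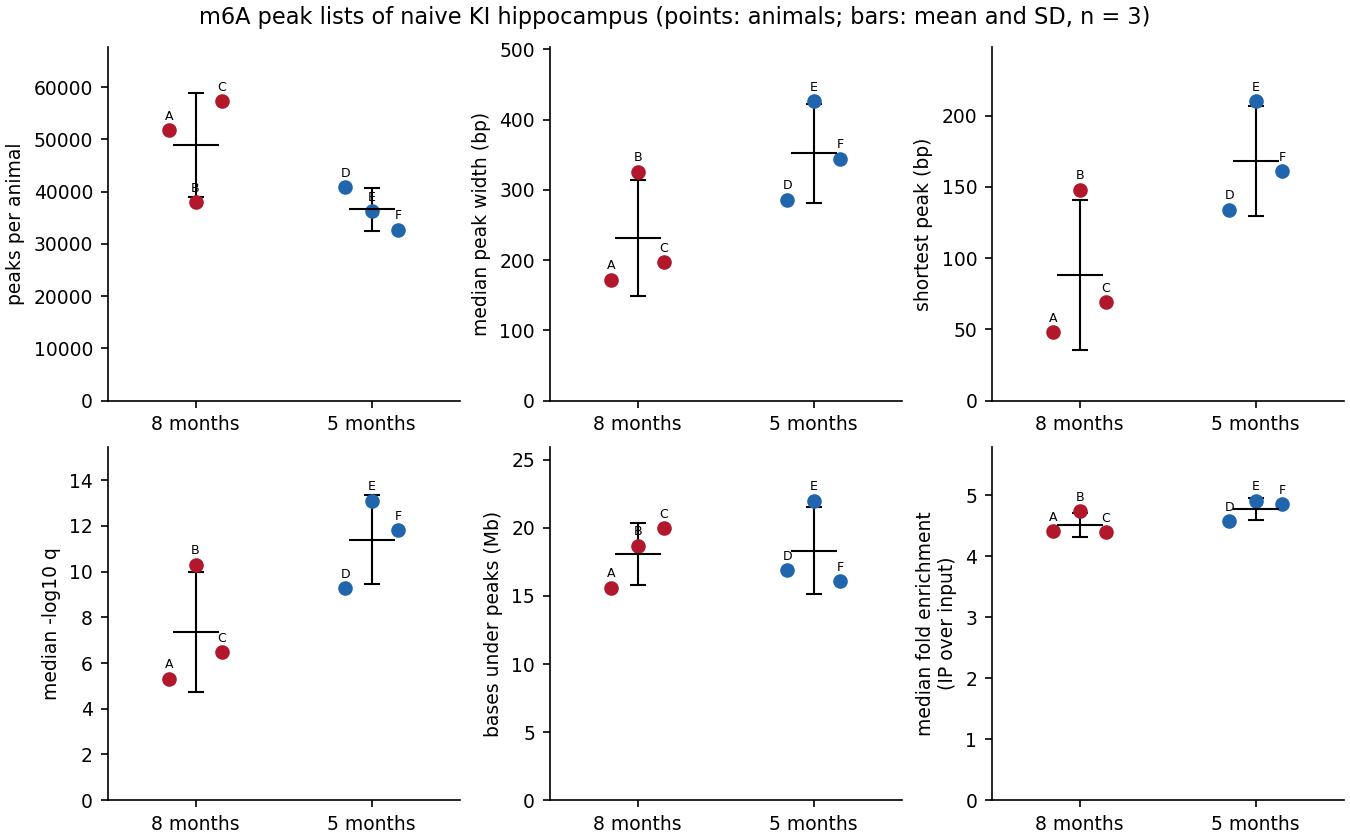
Peak number, median width, shortest peak, median -log10 q, bases under peaks and median fold enrichment of each animal, with 8-month naive KI mice on the left and 5-month mice on the right of each panel (bars: mean and SD, n = 3 each). Animals A and C of 8 months stand apart in number, width and shortest peak, while animal B lies among or near the 5-month animals.

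The shortest peak in a list moved with these differences. It was 48, 148 and 69 bp in animals A, B and C of 8 months, against 134, 210 and 161 bp in animals D, E and F of 5 months. Animals A and C also had the lowest median -log10 q, 5.31 and 6.47, while animal B had 10.3, against 9.28, 13.1 and 11.8 at 5 months. Counting only peaks with a -log10 q of at least 5 left 26766, 30370 and 35351 peaks at 8 months, against 31797, 31086 and 28001 at 5 months, so that the surplus of peaks at 8 months lay among the weaker ones.

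The place of the summits along transcripts separated the ages without overlap. CDS, the protein-coding part of exons, held 37.8%, 32.5% and 39.0% of all summits in animals A, B and C of 8 months, against 27.3%, 28.9% and 29.7% in animals D, E and F of 5 months. The lowest 8-month animal was thus above the highest 5-month animal, with means of 36.4 ± 3.49% at 8 months and 28.6 ± 1.19% at 5 months (SD, n = 3 each). Introns held 21.7%, 23.4% and 21.3% of the summits at 8 months, against 31.2%, 26.9% and 26.4% at 5 months (22.1 ± 1.15% and 28.2 ± 2.62%). Every 8-month animal was below every 5-month animal. Both differences gave an exact permutation p of 0.1, which is the smallest that 3 against 3 animals allow, and 0.350 after adjustment over 14 measures, so neither passed a threshold. With only peaks of -log10 q of at least 5 the CDS share was still 37.4% at 8 months and 30.2% at 5 months, and the intron share 19.6% at 8 months and 26.8% at 5 months.

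**Figure D2:**
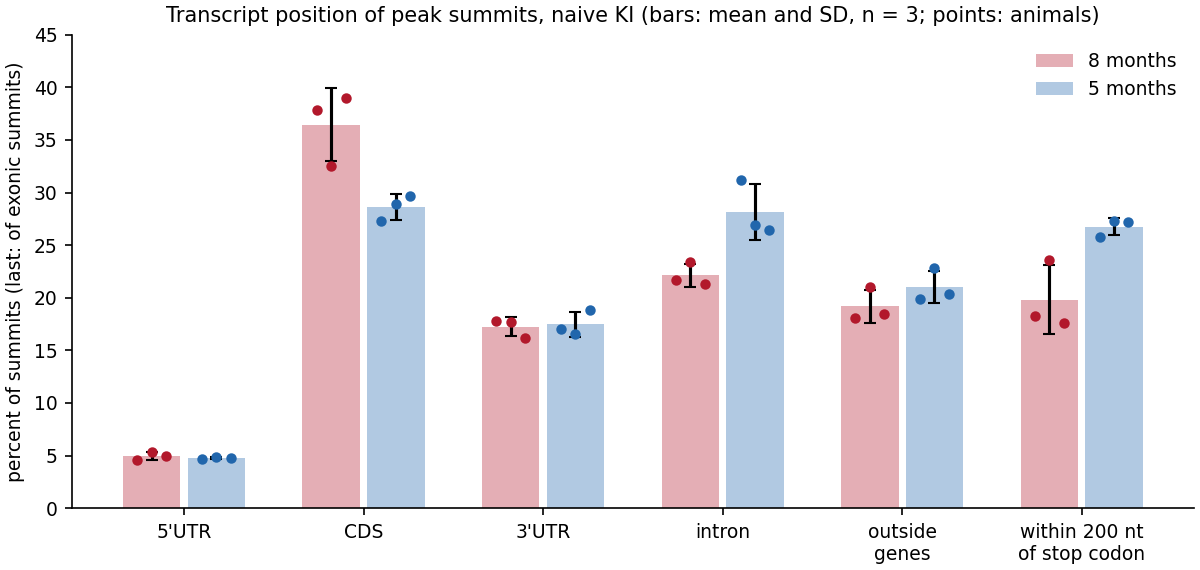
Percent of peak summits in 5'UTR, CDS, 3'UTR, introns and outside protein-coding genes, and percent of exonic summits within 200 nt of a stop codon, for 8-month naive KI mice (red, left) and 5-month naive KI mice (blue, right). The CDS points of the 8-month animals, from 32.5% to 39.0%, all lie above those of the 5-month animals, and their intron points all lie below.

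The untranslated regions overlapped between the ages. The 3'UTR held 17.3 ± 0.908% of summits at 8 months and 17.4 ± 1.19% at 5 months, and the 5'UTR 4.94 ± 0.363% at 8 months and 4.77 ± 0.129% at 5 months (SD, n = 3 each), with overlap in both. Summits outside protein-coding genes made up 19.2 ± 1.58% at 8 months and 21.0 ± 1.53% at 5 months, also with overlap. When the classes were taken over the bases under peaks instead of summits, the CDS still held more at 8 months, 38.1 ± 2.45% against 33.2 ± 1.70% at 5 months, and introns less, 18.3 ± 1.87% against 23.3 ± 1.56%, both without overlap. The 5'UTR then held 4.47 ± 0.176% at 8 months and 4.25 ± 0.0162% at 5 months, also without overlap.

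Within exons, the 8-month summits lay less often at the stop codon, where m6A is known to gather. Of the exonic summits, 18.3%, 23.6% and 17.6% fell within 200 nt of a stop codon at 8 months, against 25.8%, 27.3% and 27.2% at 5 months, with no overlap (exact permutation p = 0.1). The first 5 of 10 equal parts of the CDS held 31.4 ± 2.88% of exonic summits at 8 months and 26.0 ± 0.434% at 5 months (SD, n = 3 each), without overlap, whereas the last 5 parts held 33.2 ± 0.552% at 8 months and 32.5 ± 1.07% at 5 months, with overlap. Coding summits at 8 months also fell in shorter exons. The median length of the exon under a CDS summit was 326, 720 and 254 nt at 8 months, against 907, 904 and 1062 nt at 5 months, so that even the highest 8-month animal was below the lowest 5-month animal. GGAC lay within 50 bp of 40.3 ± 1.44% of summits at 8 months and 40.8 ± 1.67% at 5 months, and the same windows moved by 1000 bp held it in 27.1%, 27.3% and 27.2% at 8 months, against 26.3%, 26.7% and 26.7% at 5 months.

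**Figure D3:**
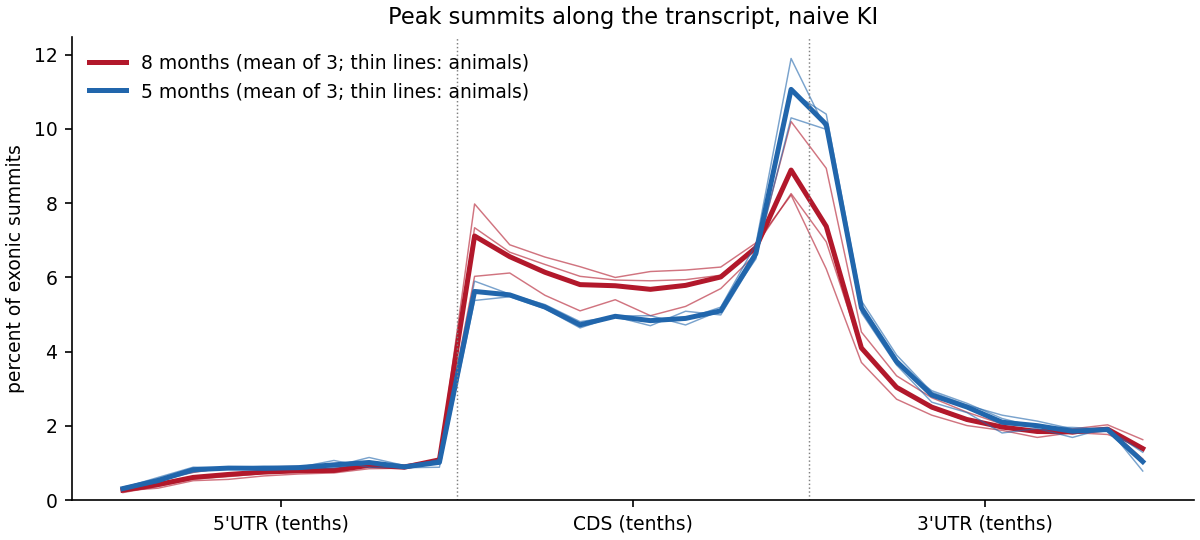
Percent of exonic summits in each of 10 equal parts of the 5'UTR, CDS and 3'UTR of the transcript, for 8-month (red) and 5-month (blue) naive KI mice (thick lines: mean of 3 animals, thin lines: single animals). The 5-month curve is higher at the end of the CDS and start of the 3'UTR, and the 8-month curve is higher over the earlier part of the CDS.

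Naive WT mice differed with age in the same direction. Their CDS share was 34.9 ± 4.96% at 8 months and 28.7 ± 0.259% at 5 months (SD, n = 3 each), and their intron share 22.3 ± 4.22% at 8 months and 26.8 ± 1.58% at 5 months, both without overlap. The age difference in KI less that in WT was 1.67 percentage points for the CDS (exact permutation of age within genotype over 400 arrangements, p = 0.820) and -1.57 points for introns (p = 0.725, same test). For peak number the age difference was 12403 peaks in KI and 2421 in WT (p = 0.270, exact permutation over the same arrangements). None of the 14 measures had an adjusted p under 0.846 in this test.

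Over all 24 animals of the series the same positions moved with the shortest peak, but not all of them within the 5-month animals. The share of exonic summits near the stop codon rose with the length of the shortest peak (Pearson r = 0.84, permutation p = 1.0e-05, the smallest the 100000 permutations can give; Spearman rho = 0.74, p = 8.0e-05), and r was 0.83 without the 2 animals farthest from the median. Within the 12 animals of 8 months r was 0.94 and within the 12 of 5 months 0.62. For the CDS share r was -0.53 over 24 animals (permutation p = 0.00714, Spearman rho = -0.39, p = 0.0625; r = -0.46 without 2 animals). It was -0.80 within 8 months but 0.13 within 5 months, and the adjusted p of the pooled value over 12 such relations was 0.0122. For the intron share r was 0.45 over 24 animals (permutation p = 0.0269, adjusted p = 0.0367). It was 0.75 within 8 months but -0.18 within 5 months (-0.71 without 2 animals). The part of the shortest peak in the age differences was not tested.

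Joining the peaks of the 6 animals, by an overlap of at least 1 bp, gave 72843 regions. Of these, 20496 (28.1%) had a peak in all 6 animals and 24057 in a single animal. Counting those called in 2 or 3 animals of an age gave 41153 regions at 8 months and 31441 at 5 months, and 27912 were found at both ages, which was 67.8% of the 8-month and 88.8% of the 5-month regions. A region had a peak in all 3 animals of 8 months and none of 5 months in 1502 cases, 2.06% of all joined regions, and in none of 8 months and all 3 of 5 months in 216 cases, 0.297%. No single region can reach a p under 0.1 with 3 against 3 animals, so these are counts and not calls of a test.

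**Figure D4:**
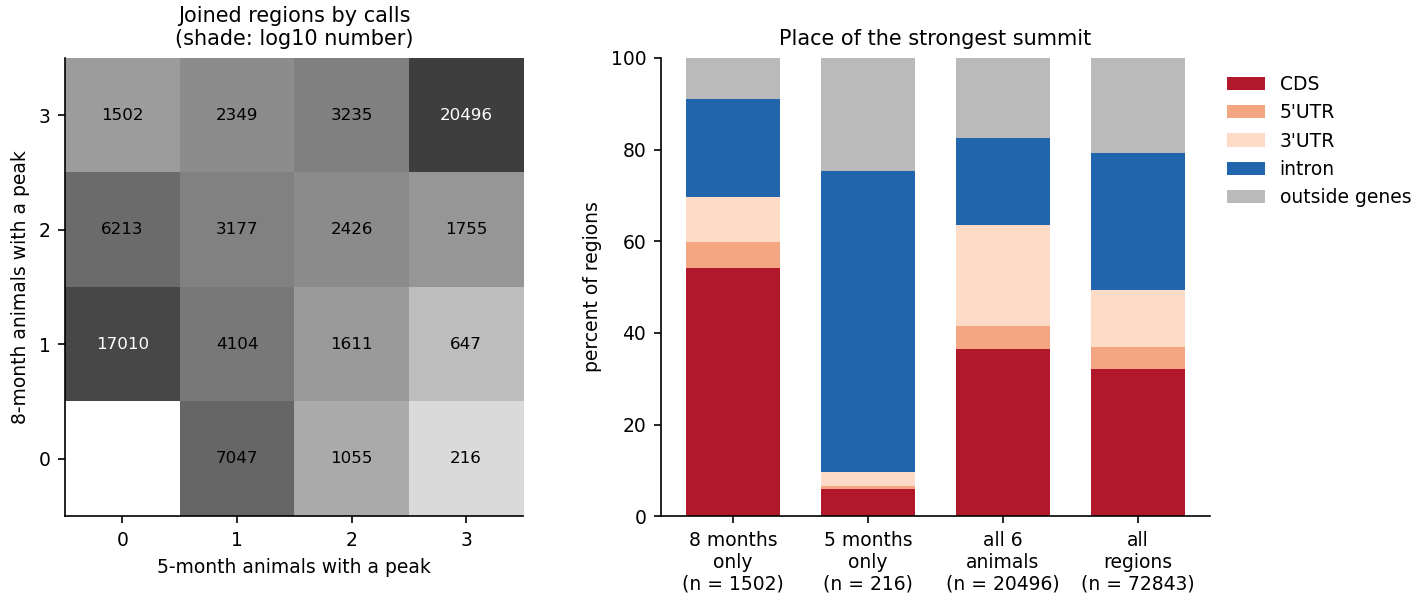
Left, numbers of joined regions by how many 8-month (vertical axis) and 5-month (horizontal axis) naive KI animals had a peak there, shaded by log10 of the number. Right, transcript class of the strongest summit, in percent, of regions called at 8 months only, at 5 months only, in all 6 animals and of all regions, where CDS makes up 54.2% of the 8-month-only and introns 65.7% of the 5-month-only regions.

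The surplus of 8-month regions depended on weak peaks. With only peaks of -log10 q of at least 5 there were 376 regions at 8 months only and 518 at 5 months only, and with the 32710 best peaks of each animal 437 and 616, so that the balance turned. Leaving out animal B gave 6365 8-month-only regions, but the rule then asks for fewer animals, which tends to raise the count in itself. Their median lowest -log10 q over the 3 animals was 2.92 for 8-month-only and 4.13 for 5-month-only regions, and the regions together took up 2.95%, 3.96% and 2.65% of the peaks of animals A, B and C, and 0.532%, 0.598% and 0.670% of those of animals D, E and F.

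Regions called at 8 months only held a larger CDS part than those called at 5 months only under each setting run. Of the 8-month-only regions, 54.2% had their strongest summit in CDS and 21.4% in introns, while of the 5-month-only regions 6.02% lay in CDS and 65.7% in introns, and regions called in all 6 animals had 36.4% in CDS and 19.0% in introns. Over all joined regions 32.2% lay in CDS and 29.8% in introns. Over the other peak limits, joins and omissions of 1 animal the CDS part ran from 46.3% to 65.6% of 8-month-only and from 3.14% to 10.7% of 5-month-only regions. With animal B as the only 8-month animal, 30.9% of 4735 8-month-only and 8.66% of 1629 5-month-only regions lay in CDS. The 8-month-only regions then had 30.6% in introns, so that both of their shares were at the level of all regions, and their CDS surplus over all regions was no longer seen. Of the 8-month-only regions that lay in exons 6.54% were near a stop codon, beside 28.7% of regions called in all 6 and 17.8% of all regions. The exon under a coding summit had a median of 192 nt in 8-month-only regions, near the 242 nt over all regions, and of 1088 nt in regions of all 6 animals.

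Sequence differed between the sets as well. The windows were cut from genomic sequence, so those in short exons can hold intron sequence, and the part of exon length was not tested. The strongest summit with 50 bp on either side had a median GC content of 54.5% in 8-month-only, 43.6% in 5-month-only and 51.5% in regions called in all 6 animals. Within introns alone it was 51.5% in 8-month-only and 43.6% in 5-month-only regions, beside 46.5% in all intronic regions. GGAC, searched on the strand of the gene in regions of 1 gene, was found in 38.0% of 8-month-only and 25.3% of 5-month-only regions, beside 45.8% of regions of all 6 animals and 38.2% of all regions. Among coding regions it was found in 40.2% of 8-month-only regions and 50.1% of those of all 6 animals, beside 43.3% of all coding regions. Only 11 coding 5-month-only regions were searched, with 9.09%. Among intronic regions it was found in 31.8% of 8-month-only and 25.2% of 5-month-only regions. This was beside 30.8% of intronic regions of all 6 animals and 29.0% of all intronic regions. DRACH was found in 83.9% of 8-month-only and 79.7% of 5-month-only regions, beside 83.9% of all regions. A perfect tandem repeat of at least 24 bases, with a unit of up to 6 bases, lay in the window of 1.53% of 8-month-only and 17.2% of 5-month-only regions, beside 5.34% of regions of all 6 animals and 7.44% of all regions. Within introns it was 2.48% of 8-month-only and 19.7% of 5-month-only regions, beside 17.2% of regions of all 6 animals and 15.2% of all intronic regions. The 5-month-only share in introns was thus near that of intronic regions called at both ages. The share of all summits with such a repeat was 6.92%, 5.09% and 5.75% at 8 months, against 9.80%, 5.28% and 7.67% at 5 months, with overlap. The methods state that reads in repetitive regions were removed before peaks were called.

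The 1311 8-month-only regions that lay in exactly 1 gene fell in 1071 genes, and 888 of these genes had a single such region. The genes were mostly ones with other m6A peaks, since 942 of them (88.0%) also had a region called in all 6 animals, beside 68.4% of all genes with a region. At least 1 such region was held by 8.74% of all 12260 genes with a region in exactly 1 gene. Ttbk1, a brain kinase that phosphorylates tau, had 5 8-month-only regions of 19, 2 of them in CDS and 2 in introns. It also had 7 regions called in every animal. Of all regions in exactly 1 gene, 2.35% were called at 8 months only. Those with 4 regions each were Dapk1, a death-associated kinase, Notch1, the Notch receptor, Nrxn2, a presynaptic adhesion molecule, Cux2, a homeobox factor of upper-layer neurons, Myo18a, an unconventional myosin, Shc3, a neuronal signalling adaptor, and Bzrap1 (Tspoap1), an active zone protein. In that order these genes held 12, 15, 26, 21, 32, 13 and 21 regions in all.

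Ranked by the lowest -log10 q over the 3 animals, the first 8-month-only region lay in an intron of Ttl (chr2:128906856-128907044), which adds the terminal tyrosine of alpha-tubulin. Its fold enrichment was 13.0, 8.87 and 8.31 in animals A, B and C, with no peak in any 5-month animal. Next came a coding region of Vps13d (chr4:144742646-144742807), a lipid transfer protein, with a fold enrichment of 6.46, 4.38 and 9.49, and a 5'UTR region of Plxna1 (chr6:89312434-89312598), a semaphorin receptor, with 6.80, 12.2 and 6.20. The region in Ubn2 (chr6:38390342-38390497), a subunit of a histone chaperone, had 5.02, 4.87 and 5.88, and that in Abl1 (chr2:31653008-31653237), a tyrosine kinase of the cytoskeleton, 4.50, 4.62 and 4.23. Both lay in CDS. The remaining 7 of the 12 lay in Hipk2, a nuclear kinase, the scaffold genes Magi2 and Magi1, 1110012J17Rik (Mtcl1 in RefSeq), Sema5b, a semaphorin, Plekhg3 and Lrp10. By class 5 of the 12 were coding, 5 intronic and 2 in a 5'UTR. Over these 12 regions and 3 animals, naive WT mice had a peak in 17 of 36 cases at 8 months and 2 of 36 at 5 months. Trained KI mice had one in 17 of 36 at 8 months and 14 of 36 at 5 months. The cases are regions within 3 animals and not independent replicates, and trained WT mice were not counted.

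All 12 of the best ranked 5-month-only regions were intronic. The first lay in Gabra4 (chr5:72042294-72042519), the alpha4 subunit of the GABA-A receptor, with no peak in any 8-month animal and a fold enrichment of 3.41, 5.92 and 4.08 in animals D, E and F. Stx1a (chr5:135503965-135504285), a SNARE protein of synaptic vesicle fusion, had 5.67, 5.34 and 11.2. Kcnb2 (chr1:15526696-15526929), a voltage-gated potassium channel, had 6.42, 4.43 and 7.27. The others were Frmd4b, 2900026A02Rik, Csmd3, Map2k5, a kinase upstream of ERK5, Ppm1l, a protein phosphatase, Ptprn2, a dense-core vesicle protein, Diap2 (Diaph2 in RefSeq), a formin, Bai3 (Adgrb3), an adhesion receptor, and Anks1b, a postsynaptic protein. Over these 12 regions naive WT mice had a peak in 7 of 36 cases at 8 months and 23 of 36 at 5 months. Trained KI mice had one in 10 of 36 at 8 months and 24 of 36 at 5 months. Here too the cases are regions within a few animals and not independent replicates. Trained WT mice were not counted, and over all 5-month-only regions they ran the other way. Over the 12260 genes, 1.23% held a 5-month-only region, and Sox5, a transcription factor of neuronal development, was the one gene with 3, all intronic. Sox5 held 28 regions in all, and 0.281% of all regions in exactly 1 gene were called at 5 months only.

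Animals that had no part in choosing these regions were then examined. Of the 1502 8-month-only regions, naive WT animals of 8 months had a peak in 10.6%, 66.7% and 46.4%, against 17.0%, 11% and 6.13% in naive WT animals of 5 months. In trained KI mice it was 17.8%, 57.5% and 30.4% at 8 months, against 31.7%, 11.9% and 23.2% at 5 months, and in trained WT mice 17.0%, 44.9% and 60.9% at 8 months, against 5.66%, 9.32% and 4.33% at 5 months. Animals of 8 months were spread widely, with 1 low animal in each condition. Of the 216 5-month-only regions, naive WT animals had a peak in 29.2%, 21.8% and 24.1% at 8 months, against 54.6%, 46.3% and 51.4% at 5 months. Trained KI mice had 40.3%, 16.2% and 19.9% at 8 months, against 38.4%, 56.0% and 62.0% at 5 months, and trained WT mice 30.6%, 43.5% and 50.5% at 8 months, against 31.9%, 10.6% and 45.8% at 5 months. The trained WT mice thus ran the other way.

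**Figure D5:**
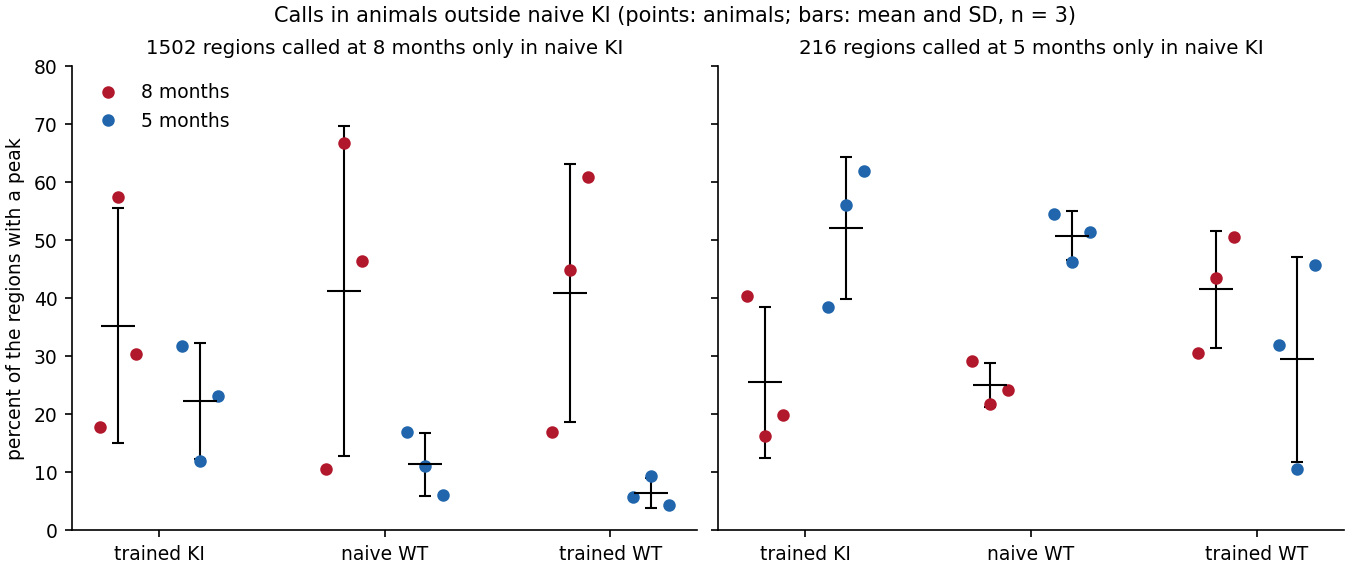
Percent of the 8-month-only (left) and 5-month-only (right) regions of naive KI mice that had a peak in each of the 18 animals of the other conditions, with 8 months in red on the left of each pair and 5 months in blue (bars: mean and SD, n = 3). Naive WT animals of 5 months, from 46.3% to 54.6%, all lie above those of 8 months for the 5-month-only regions, while trained WT animals overlap.

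Set together, with age permuted within each condition, the share of 8-month-only regions with a peak was 25.8 percentage points higher at 8 months (exact permutation over 8000 arrangements, p = 0.00900, adjusted p = 0.0495 over 11 measures, n = 9 animals an age). The share of 5-month-only regions was lower by 13.5 points (difference -13.5, exact permutation p = 0.0720, adjusted p = 0.132). The first share less the second, which compares both sets within an animal, was 39.3 points higher at 8 months (exact permutation p = 0.00275, adjusted p = 0.0302). Among the 15 animals whose shortest peak was at least 100 bp the share of 8-month-only regions was 14.5 points higher at 8 months (exact permutation over 1000 arrangements, unadjusted p = 0.0450), and the difference between the shares was 27.4 points (same test, exact permutation p = 0.0150). All animals left out by this limit were of 8 months. Each had the highest share of 8-month-only regions in its condition (66.7% in naive WT, 57.5% in trained KI and 60.9% in trained WT). The CDS share itself was 3.19 points higher at 8 months in the 18 animals (exact permutation p = 0.174) and 0.677 points higher in those 15 (exact permutation p = 0.774), which did not pass the threshold. The share near the stop codon was lower by 3.24 points in the 18 animals (difference -3.24, exact permutation p = 0.0302, adjusted p = 0.111) and by 0.950 points in those 15 (difference -0.950, exact permutation p = 0.239). The 18 animals also had 4251 more peaks at 8 months (exact permutation p = 0.0950, adjusted p = 0.139). Their share of the regions called in all 6 naive KI animals was 4.08 points higher at 8 months (exact permutation p = 0.0620, adjusted p = 0.132). The part of peak number in these shares was not tested. This test over the 18 animals was chosen after the naive KI regions had been seen. The labels give no sequencing batch, and a batch shared by animals of an age cannot be told apart from age.

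Enrichment was compared over the 20496 regions called in all 6 animals, as log2 of the fold enrichment centred on the median of each animal. By limma with Benjamini-Hochberg adjustment 0 regions were higher and 0 were lower at 8 months at an adjusted p under 0.05 (0% of the regions tested in either direction), and the smallest adjusted p was 0.569. At an unadjusted p under 0.05 there were 1346 regions (6.57%), 610 higher and 736 lower. With 200 of the 20496 regions shifted in simulated data, the same fit found 65% of those shifted by 2 on the log2 scale, with 5 false calls. It found 0% of those shifted by 1 or 0.5, so that in this setting moderate changes in so few regions were not detectable with 3 animals an age. The simulated noise took the SD of each region within the ages as its true SD, so recovery in the real data can differ. Shifts in a larger part of the regions were not simulated. The dependence of the age difference on genotype was tested over 14973 regions called in all 12 naive animals (0 regions at an adjusted p under 0.05, and 585 at an unadjusted p under 0.05, limma).

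The direction of the small differences followed the transcript class. The median log2 difference (8 minus 5 months) was 0.04 over 7460 coding, 0.05 over 4539 3'UTR and 0.08 over 1038 5'UTR regions, but -0.11 over 3886 intronic and -0.05 over 3573 regions outside genes. Enrichment was higher at 8 months in 54.4% of coding and 39.1% of intronic regions. The median centred level of coding less that of intronic regions was -0.13, -0.09 and 0.03 in animals A, B and C of 8 months, against -0.21, -0.15 and -0.25 in animals D, E and F of 5 months, on the log2 scale. The groups did not overlap (-0.06 ± 0.08 at 8 months and -0.21 ± 0.05 at 5 months, SD, n = 3 each, exact permutation p = 0.1).

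The regions with the smallest p in each direction did not pass the adjusted threshold (limma, adjusted p = 0.569 for each) and are given as such. Those higher at 8 months were all coding. In Zcchc11 (chr4:108185429-108186164, Tut4 in RefSeq), which adds uridines to RNA ends, the fold enrichment was 9.19, 6.57 and 9.53 at 8 months, against 2.64, 2.99 and 2.51 at 5 months (log2 difference 1.56, SE 0.28). Every 8-month animal was above the highest 5-month animal. Mesdc2 (Mesd), a chaperone of lipoprotein receptors, had 8.99, 4.97 and 11.7 at 8 months, against 2.43, 3.34 and 2.7 at 5 months. En2, a homeobox factor, had 15.4, 12.8 and 13.1 at 8 months, against 4.91, 5.42 and 6.73 at 5 months. Pak4, a cytoskeletal kinase, and Mcph1, the microcephaly gene product microcephalin, followed with log2 differences of 1.24 and 1.29.

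Those lower at 8 months were all intronic. In Clstn3 (chr6:124402405-124403178), a synaptic adhesion protein, the fold enrichment was 3.74, 4.74 and 4.65 at 8 months, against 9.79, 12.3 and 9.88 at 5 months (log2 difference -1.34, SE 0.27). In Slit3 (chr11:34961988-34962356), an axon guidance ligand, it was 4.48, 7.36 and 5.27 at 8 months, against 12.8, 12.1 and 18.9 at 5 months. Gpatch3 had 7.03, 4.48 and 4.31 at 8 months, against 12.1, 14.0 and 15 at 5 months. Parm1 and 4933427G17Rik (Mfsd13b) had log2 differences of -1.49 and -1.45. In all 5 the groups did not overlap, nor did they in the 5 coding regions, which the ranking by p makes likely in itself.

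Whole genes seldom changed their call. Of 13200 protein-coding genes with a summit in any of the 6 animals, 9408 had one in all 6. Only 73 (0.553%) had summits in all 3 animals of 8 months and none of 5 months, and 20 (0.152%) in none of 8 months and all 3 of 5 months. Genes were counted by annotation entry, and BC037034 among the 73 and Tex9 among the 20 had repeated entries. The 8 best ranked at 8 months only were Fsd1, Hnrnpul2, an RNA-binding protein, Commd9, Csf2rb2, a cytokine receptor subunit, Cops6, a subunit of the COP9 signalosome, the splicing factors Sf3a1 and Cherp, and Agbl1. Those called at 5 months only were Wdfy2, Afm, Sult1a1, a sulfotransferase, Kcnj13, a potassium channel of epithelia, Tex11, Impg2, Mzt1 and Ptplb. Kcnj13 is also a marker of the choroid plexus, and of 10 genes of that list 5, 4 and 4 had a peak at 8 months, against 6, 6 and 8 at 5 months. Of all 22380 genes it was 11605, 10946 and 12089 at 8 months, against 11197, 11115 and 10492 at 5 months. Over the 8 regions of the choroid plexus list called in all 6 animals the median log2 difference in enrichment was 0.32. Of these 8 regions 2 were higher at 8 months and 0 lower at an unadjusted p under 0.05 (limma). Over all 16287 such regions in 1 gene the median was 0.01, with 502 higher and 527 lower. The defining choroid plexus genes Ttr and Aqp1 had a peak in no animal. The part of choroid plexus RNA in these calls was not tested.

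Huntingtin itself carried 6 joined regions found in at least 2 of the 6 animals. A region in the first intron, 489 bp from the start of Htt (chr5:35104878-35105427), was called in all 6 naive KI animals, with a fold enrichment of 7.36, 7.83 and 2.83 at 8 months, against 7.63, 8.85 and 9.79 at 5 months. The difference did not pass (log2 -0.73, SE 0.38, limma adjusted p = 0.773). Over the whole series this region had a peak in 12 of 12 KI and 0 of 12 WT animals. A region in the second intron (chr5:35125723-35126004) was called in animal C alone at 8 months, with a fold enrichment of 4.83, against 5.06, 6.93 and 6.48 in the 3 animals of 5 months. Over the 24 animals, both genotypes and trained mice included, it had a peak in 3 of 12 animals of 8 months and 12 of 12 of 5 months. In the 3'UTR, the region at chr5:35251268-35252004 had a peak in all 3 animals of 8 months, with 3.18, 4.00 and 5.89, against 1 animal of 5 months with 2.76, but in 11 of 12 animals of 8 months and 8 of 12 of 5 months over the series. These regions were singled out after their values had been seen.

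Genes of m6A writers and erasers had no region called in all animals of 1 age alone. They held 58 regions in exactly 1 gene, and 0 were called in all 3 animals of one age and none of the other, beside 2.35% and 0.281% of all regions in exactly 1 gene. Over their 24 regions called in all 6 animals the median log2 difference was 0.00, beside 0.01 over all 16287 such regions in 1 gene, and the smallest limma adjusted p was 0.719. This last was a coding region of Alkbh5 (chr11:60367640-60368043), the demethylase, with a fold enrichment of 2.94, 5.23 and 4.33 at 8 months, against 2.43, 2.59 and 2.22 at 5 months, without overlap. Fto, the other demethylase, had a coding region (chr8:93933032-93933711) with 4.84, 2.78 and 3.27 at 8 months, against 3.90, 2.61 and 2.39 at 5 months, with overlap. Mettl14, a core subunit of the writer, had a coding region called in 2 animals of 8 months and 3 of 5 months, and another (chr3:123074293-123074421) called in 2 of 8 months and 0 of 5 months. Over all writers and erasers 8 regions were called in 2 of 3 animals at 8 months and 0 of 3 at 5 months. There were 0 regions the other way round. Of all 72843 joined regions, 6213 had the first pattern and 1055 the second, so the same imbalance was seen outside these genes. Wtap, Rbm15, Mettl16, Cbll1, Zc3h13 and 1110037F02Rik (Virma) each had regions in all 6 animals. Among readers, Prrc2a had 2 8-month-only regions, of 65 regions in the list.

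For glutamate receptor, scaffold, presynaptic and channel genes the 8-month-only counts lay near the background. Regions called at 8 months only made up 1.88% of 478 glutamate receptor, 2.02% of 595 postsynaptic scaffold, 2.17% of 506 presynaptic and 1.66% of 602 voltage-gated channel regions, beside 2.35% of all regions in exactly 1 gene. By genes the share looks larger, 8 of 25 glutamate receptor genes (32%) beside 8.74% of all genes, and these 25 genes held 478 regions. Their 8-month-only regions included Grik3, Grik5 and Grin2a among receptors, Camk2b, Dlgap1, Dlgap4 and Dlgap3 at the postsynapse, Nrxn2, Bsn and Vamp1 at the presynapse, and Kcnip2, Cacna1h, Cacna1b and Cacnb2 among channels. The GABA synapse had 1 of 196 (0.510%), in Gphn. At 5 months only there were 1 of 478 regions among receptors (0.209%, in Grm4) and 2 of 196 at the GABA synapse (1.02%, in Gabra4 and Gphn). There were 2 of 595 at the postsynapse (0.336%, in Dlg2 and Dlgap1) and 2 of 506 at the presynapse (0.395%, in Stx1a and Nrxn3). Channels had 3 of 602 (0.498%, in Kcnb2, Kcnq5 and Kcnc2), beside 0.281% of all regions in exactly 1 gene. The lowest -log10 q over the 3 animals was only 1.69 in Dlgap1 and 1.39 in Kcnc2.

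Immediate-early genes, which neurons switch on with activity, had 6 8-month-only regions in 5 of 37 genes (13.5%, beside 8.74% of all genes). These were 4.84% of 124 regions, beside 2.35% of all. None was called at 5 months only, beside 0.281% of all regions in exactly 1 gene. Fosb, a component of the AP-1 factor, had a coding region with a fold enrichment of 7.56, 8.08 and 4.16 in animals A, B and C and no peak at 5 months. Fosl2, of the same family, had 5.62, 4.04 and 6.15, and Nr4a3, an orphan nuclear receptor, 2.45, 6.34 and 3.50 in a 5'UTR. The list's median log2 difference over 61 regions called in all 6 animals was 0.10, with 3 regions higher and 0 lower at an unadjusted p under 0.05, beside 0.01 over all 16287 such regions in 1 gene, of which 502 were higher and 527 lower. Bdnf, the neurotrophin, which also stands in the disease-linked and CREB lists, had an intronic region with 3.15, 3.52 and 3.65. CREB and TrkB signalling had 10 8-month-only regions of 314 (3.18%), led by Pik3r1 and Hras1, and 1 (0.318%) at 5 months only, in Pde10a. Genes linked to Huntington's disease had 4 of 184 (2.17%), in Sp1, Hap1, Bdnf and Pacsin1. Splicing factors had 9 of 304 (2.96%), led by Srrm2, Elavl3 and Srrm4, and 1 (0.329%) at 5 months only, in Celf2. Oxidative phosphorylation had 1 of 40, in Cox15, with a lowest -log10 q of 1.35, and complement and inflammation 0 of 25. Proteasome and chaperones had 2 of 86, in Hspa12a and Hsph1, and 1 (1.16%) at 5 months only, in Dnajc6.

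Markers of cell types were read against the 2.35% of all regions in exactly 1 gene that were called at 8 months only. Astrocyte markers had 1 8-month-only region of 58, in Gfap, and microglial markers 2 of 18 (11.1%), in Siglech and Aif1. The lowest -log10 q over the 3 animals was 1.99 in Gfap, 2.32 in Siglech and 1.65 in Aif1. Dentate granule markers had 5 of 122 (4.10%), 3 of them in Lct, and interneuron markers 0 of 113. CA1 markers had 1 of 62, CA3 markers 1 of 46, oligodendrocyte markers 2 of 95, oligodendrocyte precursor markers 0 of 50, endothelial markers 2 of 48 (4.17%), choroid plexus markers 0 of 17 and striatal markers 0 of 61. At 5 months only there was 1 of 113 interneuron regions (0.885%, in Erbb4), 1 of 50 oligodendrocyte precursor regions (2.00%, in Pdgfra) and 1 of 61 striatal regions (1.64%, in Pde10a). The other marker lists had none, beside 0.281% of all regions in exactly 1 gene. Of 12 microglial markers, 7, 6 and 9 had a peak at 8 months, against 8, 6 and 5 at 5 months. Of 13 astrocyte markers it was 12, 13 and 13 at 8 months, against 13, 11 and 11 at 5 months. Of all 22380 genes it was 11605, 10946 and 12089 at 8 months, against 11197, 11115 and 10492 at 5 months.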

How the data were processed

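Hippocampal RNA was chemically fragmented, immunoprecipitated with an anti-m6A antibody and sequenced beside its input. Per the study's methods and the submitters' processing notes, reads were trimmed with BBDuk and aligned to mm9 with STAR 2.7.3a, uniquely mapped reads outside repeats were kept, and peaks were called per animal with MACS2 2.2.6. The deposited lists hold, as the authors made them, positions, a fold enrichment (ratio) and the -log10 of the q-value. Input libraries and the 10 deposited comparison tables (fold changes and p-values of other contrasts) were not used. Here, peaks were joined and summits assigned to vM1 protein-coding genes (CDS taking precedence over 3'UTR, then 5'UTR, then intron). Per-animal values were compared with exact two-sided permutation tests in Python 3.11.15, and enrichment with limma 3.58.1, tested on simulated data. Groups were taken from the labels. Members and the 25 gene lists were chosen with earlier results of these data known. Named were, per direction, the 5 smallest p where fewer than 5 passed, the 12 best one-age regions by lowest -log10 q, the 8 best such genes, up to 4 genes a list, and Htt and m6A writers and erasers. Old symbols were updated from RefSeq (GRCm38.p6). Alternatives were stricter peak lists, other joins, other classes and omission of each animal. The depth of the libraries is not in the lists. One gene with several such regions is not reported here.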

Additional observations from a re-analysis of the deposited data

How the results depend on the processing

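No paired analysis was possible because the ages were different animals, and the input libraries of the same animals had no file here. The shares of summits in CDS, introns and near the stop codon kept their direction under every alternative run, and 0 regions passed the limma threshold in each. Leaving out 1 animal at a time, the difference (8 minus 5 months) ran from -1.37 to 1.58 Mb for bases covered, from -0.624 to 0.494 percentage points for the 3'UTR, from -0.00919 to 0.354 points for the 5'UTR and from -1.50 to 0.0427 points for GGAC at summits. It left 1783 to 6365 regions at 8 months only and 348 to 732 at 5 months only, and 94 to 300 genes at 8 months only and 33 to 56 at 5 months only. Such counts tend to rise with any omission, because the rule then asks for fewer animals.

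With peaks of -log10 q of at least 3, the difference was 0.0402 for median fold enrichment and 0.403 points for the 3'UTR, with 821 and 353 regions at 8 and at 5 months only. At a -log10 q of at least 5 it was 0.328 for median fold enrichment, -266 for genes with a summit, 1.10 points for the 3'UTR and 0.473 points for GGAC, with 376 regions at 8 months only, 518 at 5 months only and 26271 called in at least 2 animals of 8 months. With the same number of best peaks in each animal it was 0.388 for median fold enrichment, -367 genes, 1.05 points for the 3'UTR and 0.503 points for GGAC, with 437 and 616 regions and 26 and 63 genes at 8 and at 5 months only. By covered bases, chosen after the data were seen, the 3'UTR difference was 2.06 points. A 50% reciprocal overlap gave 721 and 660 regions, and omission of animals A and C together, also chosen after the data were seen, 4735 and 1629. The age difference in KI less that in WT was 0.136 for median fold enrichment at -log10 q of at least 3, and at 5 it was -411 peaks, 0.384 for median fold enrichment and -345 genes. The cause was not tested. With 3 animals an age, no exact test of 1 value can give a p under 0.1.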
